A study of Oryza sativa with 21 samples.

Results

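In rice grains collected 3 days after pollination, 94 genes were lower in one DRW1 overexpression line, OE1, and higher in the other, OE2, than in the parent cultivar ZH11. The 94 were found among the 39217 genes of the deposited count table. Counts were divided by median-of-ratios size factors over all 9 grain libraries and averaged by group, and these averages are the normalised counts given below. A member had a ZH11 mean of at least 150, an OE1 mean at most the ZH11 mean divided by 1.7, and an OE2 mean at least 1.7 times the ZH11 mean. Of the table's genes, 16476 reached the ZH11 floor of 150, so the members made up 0.571% of those. The members were chosen by these levels, so their levels and folds against ZH11 are a description, without a test.

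The series profiled OE1 grains, OE2 grains and ZH11 grains by RNA-seq, with 3 libraries of each, all from paddy-grown plants. ZH11 is labelled wild type, and OE1 and OE2 are both labelled DRW1-OE. The promoter behind the overexpression and the number of insertions in each line are not stated in the labels. Nor do the labels say whether the 3 libraries of a group came from separate plants. The p-values therefore reflect the spread among these libraries alone, and that spread may be technical. No label ties DRW1 to an identifier of the table, and the level of DRW1 itself was not analysed here.

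A rice grain at this age holds a young endosperm that has only begun to fill, a small embryo and the maternal pericarp, nucellus and seed coat around them. RNA from all of these is pooled in a grain library, so a lower level from fewer cells of a type and from less RNA per cell cannot be told apart. Among the members with a name, some belong to well-known routes of rice metabolism and defence. The tryptamine route makes serotonin, peroxygenases oxidise fatty acids, and chitinases cut the chitin of fungal walls.

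Opposite shifts of this kind were the exception among genes that reached the floor. By the same limits, 1684 genes (10.2%) were down in both lines and 2029 (12.3%) were up in both. The members were 3.68% of the 2551 genes down in OE1 and 2.84% of the 3312 genes up in OE2. The mirror pattern, up in OE1 and down in OE2, was met by 68 genes (0.413%). Both lines were set against the same ZH11 libraries, so the folds of the 2 lines share an error.

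**Figure D1:**
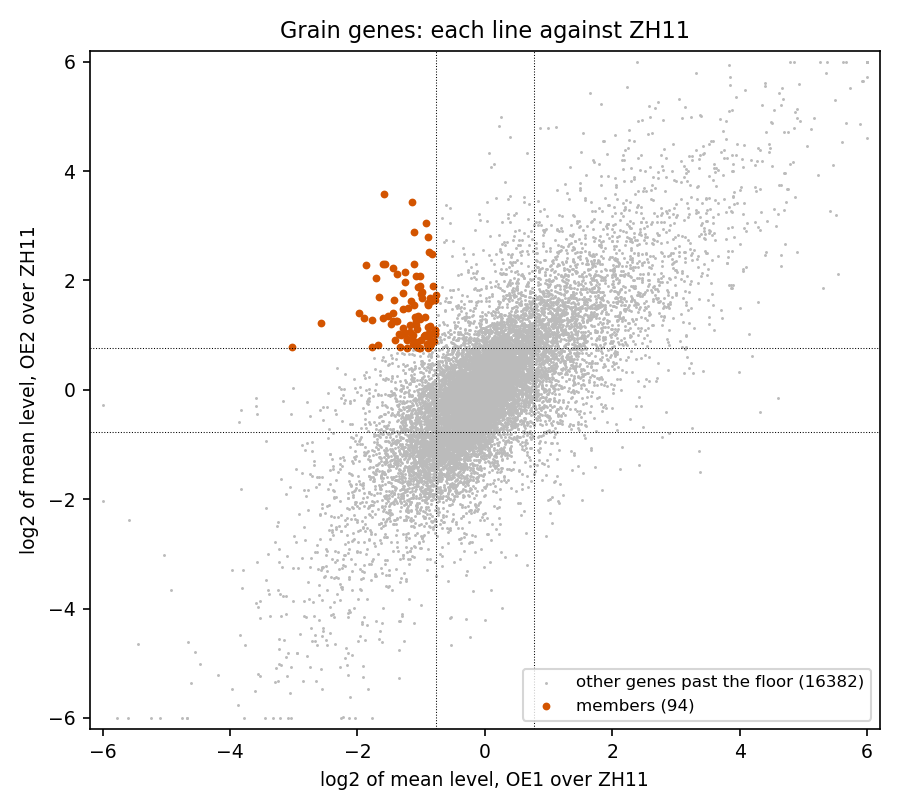
Each point is a gene with a ZH11 mean at or above the floor, placed by the log2 of the OE1 mean over the ZH11 mean (horizontal) and of the OE2 mean over the ZH11 mean (vertical). Dotted lines mark a 1.7-fold change, values beyond the axes are drawn at their edge, and the 94 members (orange) fill the upper left corner by construction, while most genes with a large change lie along the rising diagonal.

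Across the 94 members, the OE1 mean ran between 46.2 and 1939 normalised counts (median 193) and the OE2 mean between 310 and 18076 (median 1268). The ZH11 mean of the same genes ran between 151 and 4621 (median 423). The level in OE1 was 1.71-fold to 8.11-fold below ZH11 (median 2.14), and the level in OE2 was 1.703-fold to 11.97-fold above it (median 2.44). Set directly against each other, OE2 lay 3.17-fold to 35.8-fold above OE1 (median 5.60). With size factors the change in OE2 was the larger on the log2 scale for 58 members, and that in OE1 for the other 36. With library totals the members' median log2 change was −1.61 in OE1 and 0.72 in OE2. Which line changed more, and the fold counts that follow, therefore depend on the scaling. OE2 was at least 2-fold above ZH11 for 69 members, OE1 was at least 2-fold below it for 61, and both held for 46. At 3-fold the counts were 33 for OE2, 12 for OE1 and 4 for both, and at 4-fold they were 17, 2 and 0.

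Every OE1 library lay below every ZH11 library, and every OE2 library above every ZH11 library, for all 94 members. Of the genes at or above the floor, 42.1% had every OE1 library below every ZH11 library, 39.2% had every OE2 library above, and 5.81% had both. In edgeR's quasi-likelihood test with Benjamini-Hochberg adjustment over 24765 genes, 33.8% of genes were lower and 33.9% higher in OE1 than in ZH11, 74.4% were called in OE2 against ZH11, 38.4% of all as higher, and 4.1% were lower in OE1 and higher in OE2. All 94 members were called lower in OE1 and higher in OE2, which follows from the rule and is read no further. In the direct contrast 65.2% of genes tested were called and 32.4% were lower in OE1 than in OE2, the 94 members among them. As a share of all counts in a library, which uses no size factor, the members took 0.0800%, 0.0795% and 0.0776% of counts in the OE1 libraries and 0.492%, 0.505% and 0.503% in the OE2 libraries, against 0.255%, 0.252% and 0.247% in the ZH11 libraries. The 3 groups did not overlap on that scale, but the members were chosen from these same libraries, so this is a description only.

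**Figure D2:**
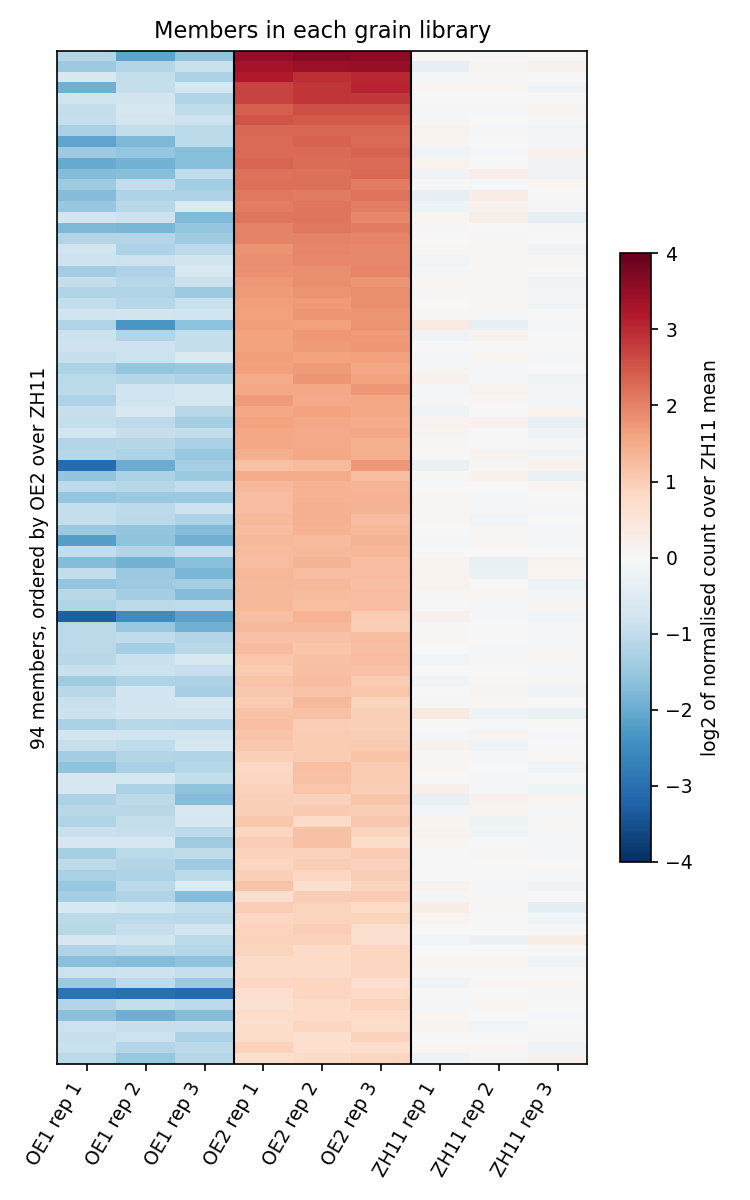
Rows are the 94 members, ordered by the OE2 fold over ZH11 with the largest at the top, and columns are the 9 grain libraries of OE1, OE2 and ZH11. Colour gives the log2 of a library's normalised count over the ZH11 mean (blue below, red above): the OE1 columns are blue and the OE2 columns red in all 94 rows, and the 11.97-fold row is at the top.

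The locus identifiers could not be looked up directly in the reference used here, so most members were left without a name. For these only the locus identifier and its chromosome are given. The named members SL, Cht3 and PXG act in different routes, and each is taken in turn before the unnamed members with the largest shifts.

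SL (LOC_Os12g16720, chromosome 12) encodes the cytochrome P450 tryptamine 5-hydroxylase, which makes serotonin and whose loss gives the Sekiguchi lesion phenotype in rice leaves. It had 169, 150 and 175 normalised counts in the OE1 libraries and 1332, 1429 and 1315 in the OE2 libraries, against 607, 458 and 615 in the ZH11 libraries. The ZH11 libraries spread more for SL than for Cht3 or PXG, at 560 ± 88.3, beside 164 ± 12.9 in OE1 and 1359 ± 61.5 in OE2 (SD, n = 3 each). The 3 groups still did not overlap, with SL 3.41-fold lower in OE1 and 2.43-fold higher in OE2 than in ZH11.

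Cht3 (LOC_Os06g51050, chromosome 6) encodes a class I chitinase. It had 828, 820 and 874 normalised counts in the OE1 libraries and 5297, 5597 and 5580 in the OE2 libraries, against 1372, 1519 and 1526 in the ZH11 libraries. With size factors its shift was uneven between the lines, at 1.75-fold lower in OE1, close to the limit of the rule, and 3.73-fold higher in OE2. How uneven it is depends on the scaling, since library totals lower the log2 changes in both lines. Its neighbour Cht1 has a closely similar sequence, so reads could have been split between these genes and the separate levels of Cht3 and Cht1 are uncertain.

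PXG (LOC_Os04g43200, chromosome 4) encodes a peroxygenase of the caleosin type, a family of oil-body proteins that oxidise fatty acids. It had 282, 265 and 270 normalised counts in the OE1 libraries and 820, 924 and 849 in the OE2 libraries, against 548, 475 and 498 in the ZH11 libraries. PXG was among the members nearest to the limits, 1.86-fold lower in OE1 and 1.71-fold higher in OE2, and its OE2 to OE1 ratio of 3.17 was the smallest of the 94.

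**Figure D3:**
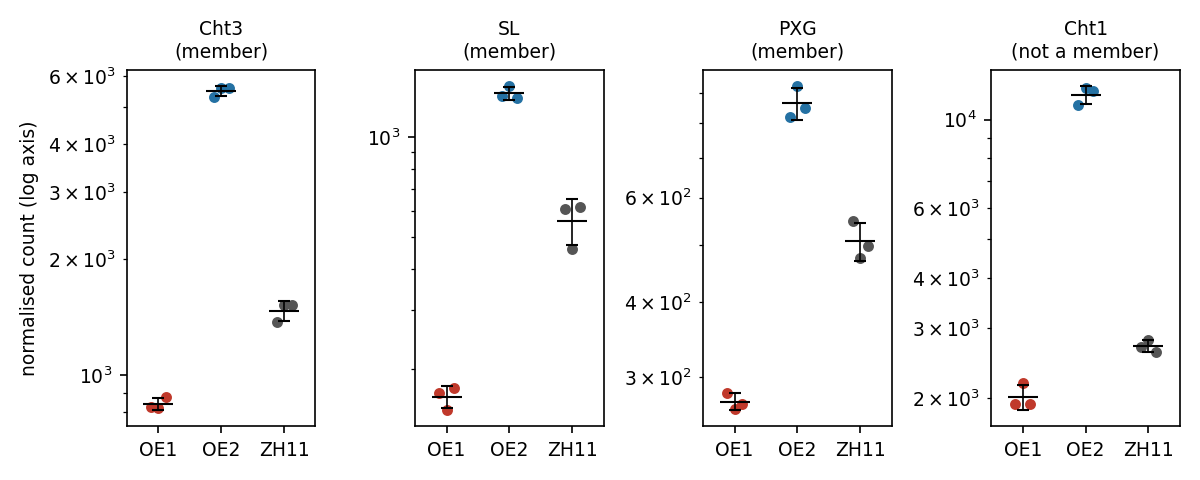
Normalised counts (log axes, a scale for each panel) of the members Cht3, SL and PXG and of Cht1, a second chitinase gene that is not a member, in OE1, OE2 and ZH11 grains. Points are libraries and bars are the mean ± SD (n = 3): in the member panels OE1 is lowest and OE2 highest, and Cht1 has the same order with a smaller fall in OE1.

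Of the 2 defence genes tested beside Cht3, Cht1 (LOC_Os06g51060), a class I chitinase, had the members' directions. With size factors it did not reach the 1.7-fold limit in OE1. It had 1930, 2184 and 1927 normalised counts in OE1 and 10879, 11989 and 11800 in OE2, against 2681, 2798 and 2610 in ZH11. By edgeR's test Cht1 fell in OE1 (log2 change −0.43, SE 0.05, adjusted p = 6.73e-09) and rose in OE2 (log2 change 2.09, SE 0.05, adjusted p = 2.64e-28). PBZ1 (LOC_Os12g36880), a pathogenesis-related protein of the PR10 family, fell in OE1, with 6346, 6052 and 5119 in OE1 and 9911, 10201 and 9933 in OE2, against 10395, 10856 and 10594 in ZH11. Its log2 change was −0.87 in OE1 (SE 0.05, adjusted p = 1.24e-15), and the change of −0.09 in OE2 did not pass edgeR's test (adjusted p = 0.108), though it did with library totals (−0.65, adjusted p = 1.63e-12).

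Ranked by the weaker of the 2 shifts, the member farthest from both limits was LOC_Os01g40480 on chromosome 1. It had 189, 204 and 237 normalised counts in OE1 and 3810, 3617 and 3696 in OE2, against 834, 757 and 699 in ZH11. That is 3.64-fold lower in OE1 and 4.86-fold higher in OE2, with no overlap between the groups. LOC_Os01g40860, on the same chromosome, came next, with 181, 179 and 215 in OE1 and 2514, 2738 and 2581 in OE2, against 649, 639 and 602 in ZH11. Its shifts were 3.28-fold down and 4.15-fold up.

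LOC_Os04g49748 and LOC_Os05g42000 were the other members past 3-fold in both lines. LOC_Os04g49748 averaged 55.6 ± 20.9 in OE1 and 571 ± 28.2 in OE2, against 175 ± 40.4 in ZH11, and LOC_Os05g42000 averaged 53.5 ± 20.4 in OE1 and 795 ± 35.1 in OE2, against 162 ± 11.6 in ZH11 (SD, n = 3 each). At such low levels in OE1 the libraries differed a good deal among themselves. LOC_Os05g42000, for example, had 38, 46 and 77 in the 3 OE1 libraries. LOC_Os11g37970 combined a large shift with high counts: 652, 604 and 543 in OE1 and 8412, 8516 and 9032 in OE2, against 1611, 1678 and 2008 in ZH11 (2.95-fold down and 4.90-fold up).

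LOC_Os08g02030 had the largest OE2 shift of the 94. It had 90, 46 and 66 normalised counts in OE1 and 2304, 2508 and 2429 in OE2, against 198, 201 and 206 in ZH11. It was 11.97-fold above ZH11 in OE2, and OE2 lay 35.8-fold above OE1. A further 8 of the 15 members with the largest weaker shift were 2.60-fold to 3.92-fold below ZH11 in OE1 and 2.48-fold to 4.68-fold above it in OE2.

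With size factors other members were lopsided, and 4 are given here that were chosen after their values were seen. LOC_Os11g10130 had the deepest fall in OE1, with means of 153 ± 7.63 in OE1 and 2137 ± 141 in OE2 against 1237 ± 27.9 in ZH11, 8.11-fold down and only 1.73-fold up. LOC_Os02g44108 was 5.93-fold lower in OE1 and 2.32-fold higher in OE2. LOC_Os08g10300 was 10.8-fold higher in OE2 and 2.22-fold lower in OE1. LOC_Os01g02900 was 8.32-fold higher in OE2 and 1.90-fold lower in OE1.

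Among the 8 members with the highest ZH11 means, LOC_Os08g41290 had 2036, 2064 and 1719 normalised counts in OE1 and 18300, 18107 and 17820 in OE2, against 4577, 4750 and 4536 in ZH11. LOC_Os06g11660 had 1658, 1705 and 1544 in OE1 and 10994, 10740 and 10016 in OE2, against 3944, 3712 and 3667 in ZH11. LOC_Os10g37980 had 927, 1145 and 1068 in OE1 and 11198, 11275 and 11263 in OE2, against 2501, 2202 and 2113 in ZH11, so its OE2 libraries differed among themselves far less than its OE1 libraries. Normalised counts are not per transcript length, so these values do not rank the genes by abundance. The other 5, LOC_Os08g05910, LOC_Os07g01020, LOC_Os02g45420, LOC_Os03g46060 and LOC_Os03g12064, were 2.08-fold to 2.38-fold lower in OE1 and 1.83-fold to 2.54-fold higher in OE2.

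At the edge of the rule the members shaded into other genes. LOC_Os08g04810, LOC_Os04g37600 and LOC_Os04g42050 were just inside, with OE2 folds of 1.706, 1.703 and 1.703. Just outside were LOC_Os01g12070 and LOC_Os06g01440, with OE2 folds of 1.699 and 1.697, and LOC_Os03g46070, at 1.68-fold up in OE2 but 2.88-fold down in OE1. LOC_Os03g46070 has the next number after the member LOC_Os03g46060, and averaged 476 in OE1 and 2294 in OE2 against 1368 in ZH11.

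The members were spread over all 12 chromosomes. Chromosome 1 held 17 of them (18.1% of members, against 14.4% of floor genes with a locus number) and chromosome 4 held 14 (14.9%, against 8.52%). Chromosome 8 held 10 (10.6%, against 6.52%). Chromosome 3 held 6 (6.38%, against 14.2%), chromosome 5 held 4 (4.255%, against 8.54%) and chromosome 6 held 3 (3.19%, against 7.77%). These shares were not tested.

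**Figure D4:**
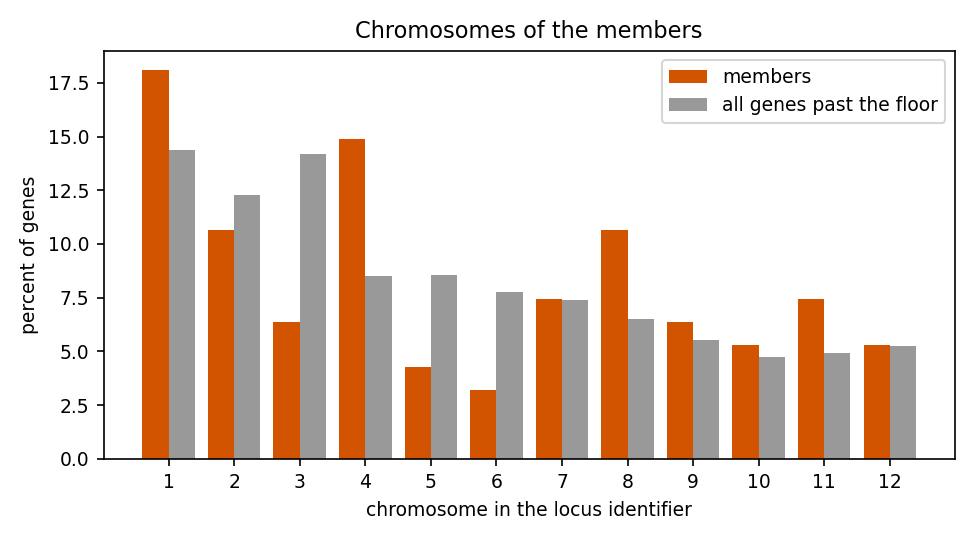
Percent of the 94 members (orange) and of the genes at or above the ZH11 floor that have a locus number (grey) on each of the 12 chromosomes. Chromosomes were read from the locus identifiers, and bars start at 0. Among the larger differences, members are a larger share than floor genes on chromosomes 4 and 8 and a smaller one on chromosomes 3, 5 and 6.

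In 2 places members stood next to each other in identifier order with no listed gene between. LOC_Os01g02160 averaged 78.8 ± 30.4 in OE1 and 1258 ± 152 in OE2 against 171 ± 12.8 in ZH11, and its neighbour LOC_Os01g02170 averaged 180 ± 50.4 in OE1 and 1375 ± 58.5 in OE2 against 374 ± 9.55 in ZH11 (SD, n = 3 each). LOC_Os01g22352 averaged 356 ± 53.7 in OE1 and 2689 ± 154 in OE2 against 721 ± 55.5 in ZH11, and LOC_Os01g22370 averaged 120 ± 36.8 in OE1 and 1529 ± 74.3 in OE2 against 327 ± 55.6 in ZH11. Whether these neighbours resemble each other in sequence was not tested, and reads shared between copies or overlapping genes cannot be told apart in this table.

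The genes flanking members went both ways. Of the 182 floor genes next to a member, 72 (39.6%) were past 1.7-fold from ZH11 in either direction in OE1 and 74 (40.7%) in OE2, beside 32.5% and 41.9% of all floor genes. Over the 182 genes the median signed log2 change was −0.13 in OE1 and −0.08 in OE2, beside −0.06 and −0.07 over all floor genes. A level below ZH11 in OE1 and above it in OE2, by any amount, was seen in 31 of the 182 (17.0%), beside 12.5% of all floor genes.

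How far the pattern held in a library that did not choose the genes was read by leaving out each library in turn. The rule then found 90 to 96 genes, and 69 of the 94 members were in all 9 of these lists. Each left-out library was set against libraries that had helped choose the genes, with size factors from all 9. Only its own counts were new, and replicates may be technical, so this is not an independent check. In the left-out OE1 library, 77 of 91, 83 of 95 and 71 of 91 genes were past 1.7-fold below ZH11, with median folds of 2.16, 2.13 and 2.15 for replicates 1, 2 and 3. In the left-out OE2 library, 85 of 96, 86 of 92 and 83 of 91 genes were past 1.7-fold above ZH11, with median folds of 2.38, 2.48 and 2.36. By group means, 15.5% of all floor genes were past 1.7-fold below ZH11 in OE1 and 20.1% above it in OE2. The shares of all floor genes in single libraries were not counted. The smallest fold in a left-out library was 1.11 below ZH11 in OE1 and 1.26 above it in OE2, so no gene changed direction. Against a left-out ZH11 library, 72 of 90, 77 of 93 and 75 of 91 genes met both limits.

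**Figure D5:**
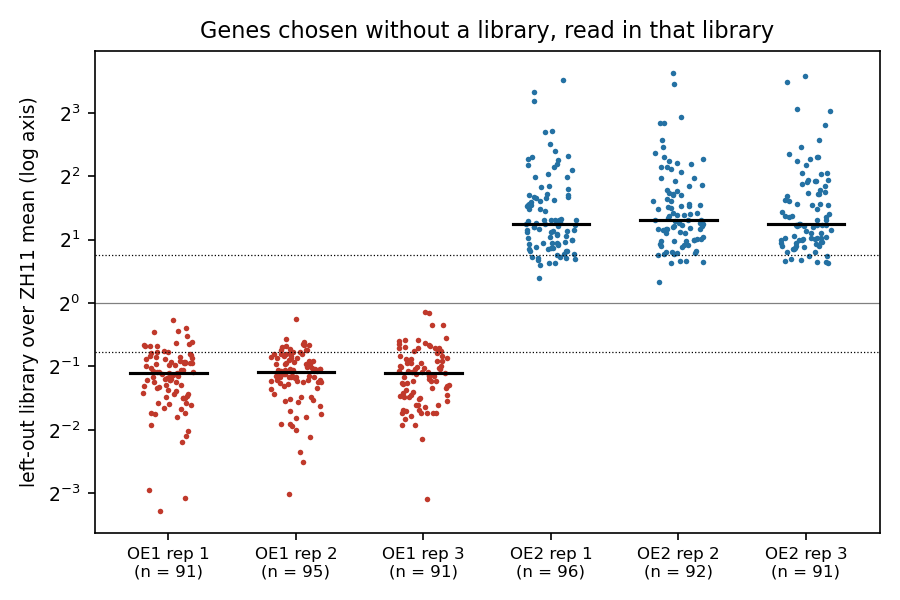
For each OE1 and OE2 library, the genes that met the rule without it (n on the axis) are plotted by their level in that library over the ZH11 mean (log axis). Black bars are medians and dotted lines are 1.7-fold: all OE1 points lie below 1 and all OE2 points above 1, with medians near 2.1-fold below and 2.4-fold above.

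Within a group the members had a higher median spread than the floor genes in OE1 and ZH11, and a lower one in OE2. Their median coefficient of variation was 11% in OE1 and 5.19% in OE2, against 6.61% in ZH11, beside 6.56%, 6.18% and 4.82% over all floor genes. The members' counts are lower in OE1 and higher in OE2 by choice, and the floor genes had a higher median ZH11 level (823, against 423 for the members). The part of depth in this difference in spread was not tested. Of the 94 members, 50, 57 and 46 (53.2%, 60.6% and 48.9%) lay above the group mean in the 3 OE1 libraries, beside 47.7%, 51.8% and 51.2% of floor genes. In the OE2 libraries the members were 33, 57 and 51 (35.1%, 60.6% and 54.3%), beside 49.9%, 50.6% and 50.3% of floor genes. In the ZH11 libraries they were 57, 52 and 33 (60.6%, 55.3% and 35.1%), beside 53.15%, 49.4% and 47.8%. In the lowest of these, OE2 replicate 1 and ZH11 replicate 3, the members' median deviation was only −0.03 on the log2 scale.

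With size factors, the summed levels of tissue markers did not overlap between OE2 and ZH11 in any of the 4 lists. Those of OE1 and ZH11 overlapped for the embryo and aleurone list and for the endosperm list. All 15 markers of 4 tissue lists were detected in every group. The summed level of 4 embryo and aleurone markers ran between 771 and 878 normalised counts in OE1 and between 1514 and 1665 in OE2, against 671 to 790 in ZH11. LEA3 carried most of that sum in OE2, with means of 446 ± 21.9 in OE1 and 1037 ± 13.4 in OE2 against 318 ± 34.4 in ZH11, while VP1 averaged 132 ± 13.5 in OE1 and 83.1 ± 37.9 in OE2 against 28.5 ± 8.27 in ZH11 (SD, n = 3 each). The OLE18 mean was low in every group, at 50.1 in OE1 and 28.4 in OE2 against 21.9 in ZH11.

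Summed levels of 5 endosperm markers were 7476 to 7952 in OE1 and 3224 to 3537 in OE2, against 7264 to 7912 in ZH11. Most of that sum in each group was starch synthase SSI, which averaged 4909 ± 168 in OE1 and 2014 ± 136 in OE2 against 6945 ± 256 in ZH11. With size factors the other 4 endosperm markers had higher means in both lines than in ZH11, such as GBSSI at 876 ± 59.6 in OE1 and 130 ± 30.7 in OE2 against 51.0 ± 4.06 in ZH11, and SSII-3 at 1688 ± 143 in OE1 and 991 ± 24.1 in OE2 against 472 ± 71.3 in ZH11 (SD, n = 3 each). The sum therefore does not describe the list as a whole. The 4 floral and maternal markers summed to 22836 to 23520 in OE1 and 26759 to 27926 in OE2, against 29620 to 30160 in ZH11, and the 2 green tissue markers to 4281 to 4905 in OE1 and 3324 to 3655 in OE2, against 8883 to 9172 in ZH11. Among single markers only OSH1 and MADS29 had the members' order of means, lowest in OE1 and highest in OE2 with ZH11 between. With size factors the other maternal markers went other ways. MADS58 (3504 in OE1, 3977 in OE2, 7795 in ZH11) and MADS3 (3125, 2836 and 6582) were lower in both lines than in ZH11. MADS13 (12960, 15786 and 11162) was higher in both. The embryo marker OSH1 averaged 182 ± 15.8 in OE1 and 418 ± 67.2 in OE2 against 369 ± 32.4 in ZH11, and the maternal marker MADS29 averaged 3614 ± 204 in OE1 and 4662 ± 377 in OE2 against 4340 ± 62.6 in ZH11 (SD, n = 3 each). For both genes every OE1 library lay below every ZH11 library, and OSH1 overlapped between OE2 and ZH11 while MADS29 did not. Their OE2 log2 changes of 0.17 and 0.10 did not pass edgeR's quasi-likelihood test (adjusted p = 0.24 for OSH1 and 0.0892 for MADS29), and are smaller than the shift that library totals bring to all genes. The part of these markers in the members' shifts was not tested.

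The scaling between groups bears on these levels, since the libraries had similar totals (33237306 to 38117144 counts) but different size factors, 0.836 to 0.932 in OE1 and 0.864 to 0.903 in OE2 against 1.22 to 1.37 in ZH11. With library totals in place of size factors the median log2 change over all genes moved to −0.54 in OE1 and −0.55 in OE2. All 94 members were still below ZH11 in OE1 and above it in OE2, with median log2 changes of −1.61 and 0.72, beside −1.11 and 1.28 with TMM factors. The kept directions follow from the rule, whose 1.7-fold limit in OE2 is larger than this move, and are read no further. Only 43 of the 94 then stayed past 1.7-fold in OE2, and the rule found 101 genes.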

How the data were processed

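The members and the gene lists were chosen with earlier results of these data known. The grain table holds read counts per gene as deposited by the authors, and per the submitters' processing notes HISAT2, featureCounts, DESeq and BWA were used, without versions or roles. Build, annotation and strandedness are not given in the sources. Of the identifiers, 38922 are rice locus numbers, from which chromosome and order were read, and 295 are others. None (0) of the identifiers matched the reference gene table directly, so a symbol is printed only where that table has the symbol of a pair from general knowledge on the identifier's chromosome (120 of 160 pairs passed).

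Groups were taken from the sample titles. Size factors were median-of-ratios factors. The quasi-likelihood test of edgeR 4.0.16 (R 4.3.3, limma 3.58.1) was fitted to all 9 grain libraries with TMM factors, the default expression filter (24765 genes tested, 14452 not, all 94 members tested) and group as its only factor. It was two-sided, with Benjamini-Hochberg adjustment, and was tested on simulated data. SE are of log2 changes. DESeq2 1.42.0 was an alternative. Depth was 33237306 to 38117144 counts per library, and no libraries of a group agreed within counting noise.

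Named were the 15 members of largest weaker shift, the 8 of highest ZH11 mean, those with a checked symbol, the 3 on each side of the limits, members adjacent in identifier order, and up to 3 genes of smallest adjusted p between lines from the defence list, which holds Cht3. One result under this rule is not reported here. Seedling RNA m5C peak lists were not used here, since nothing in the sources ties their coordinates to these identifiers.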

Additional observations from a re-analysis of the deposited data

Results flagged for a closer look

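The chitinase gene Cht1 changed in opposite directions in the lines, falling in OE1 and rising in OE2 against ZH11, and the difference between OE1 and OE2 itself passed edgeR's quasi-likelihood test with Benjamini-Hochberg adjustment (OE1 minus OE2 log2 change −2.52, SE 0.05, adjusted p = 2.56e-29, with all 3 OE1 libraries below all 3 OE2 libraries). The list it comes from was drawn up with earlier results known, and Cht1 may share reads with the member Cht3.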

How the results depend on the processing

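With the fold limit at 1.5 the rule found 161 genes and at 2 it found 46, while TMM factors gave 88, library totals 101, a ZH11 floor of 100 gave 109 and of 300 gave 65. Leaving out 1 library gave 90 to 96 members. Leaving out 1 library moved the genes called by edgeR to 15852 to 17014 for OE1 against ZH11 (16774 with all), 17710 to 18737 for OE2 against ZH11 (18418 with all) and 15353 to 16065 for OE1 against OE2 (16148 with all). With library totals 25.9% of called genes were higher in OE1 and 29.8% in OE2 than in ZH11, beside 50.1% and 51.6% with TMM factors. For the members and defence genes named by the rule above, no direction reversed under DESeq2, RLE factors, library totals, no filter, the replicate block or the left-out libraries. The rule set the members' directions in these same libraries, so for members this is read no further. With library totals the sizes of the changes did move, as given above. The tissue markers and the genes TDC2 and SNAT1 were not covered. PBZ1 in OE2 passed with no filter (log2 −0.10, adjusted p = 0.0272), without OE1 replicate 1 (−0.10, adjusted p = 0.0414) and without OE1 replicate 3 (−0.09, adjusted p = 0.0248), and the cause was not tested.

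The samples share only a replicate number: deviations of same-numbered libraries correlated across genes at −0.02 to 0.04. With the replicate block edgeR called 16598 genes in OE1 against ZH11, 18254 in OE2 against ZH11 and 15967 in OE1 against OE2, and its folds gave 90 members, the number its fit without the block also gave. In OE1 the members' coefficients of variation reached 54.5%, and the part of depth in this was not tested.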

Other observations

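The genes TDC2 and SNAT1, on either side of SL in the serotonin route, were chosen after their values were seen and so without a test. Neither had the members' order, and no other gene of these steps was read. The tryptophan decarboxylase gene TDC2 averaged 1415 ± 33.0 normalised counts in OE1 and 890 ± 66.4 in OE2, against 1431 ± 40.1 in ZH11. The serotonin N-acetyltransferase gene SNAT1 averaged 270 ± 29.5 in OE1 and 223 ± 51.4 in OE2, against 314 ± 26.9 in ZH11 (SD, n = 3 each).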
